A study of Rattus norvegicus with 6 samples.

Results

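The SLC25 mitochondrial carrier family was followed in the retina of diabetic and control rats. Its members were taken as the protein-coding entries of the deposited gene table whose symbol begins with Slc25a, together with the uncoupling protein genes Ucp1, Ucp2 and Ucp3. This gave 49 genes of the 34170 entries in the table. Of the 49 members, 42 averaged 0.5 FPKM or more across the 6 libraries and were tested, and 7 averaged less. FPKM scale the fragments of a gene to its length and to the size of the library, which puts the levels of different genes on 1 scale. The deposited FPKM summed to between 467488 and 500107 in diabetic libraries, against between 514771 and 552093 in control libraries, so a comparison between libraries depends on the scaling, and which scaling is closer to the true levels could not be settled from these values.

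The proteins of this family are small carriers of the mitochondrial inner membrane, built from a repeated domain with a central binding site that opens in turn to the cytosol and to the matrix. They exchange ADP for ATP and bring in phosphate, and they pass carboxylates, amino acids, acylcarnitines, cofactors, nucleotides and iron across a membrane that is otherwise closed to them. In the retina, mitochondria are packed into the inner segments of the photoreceptors, whose ion pumping in darkness consumes much ATP, and into synaptic terminals.

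The diabetic group comprised 3 male Sprague-Dawley rats, an outbred stock, that had received streptozotocin, a toxin of the insulin-producing beta cells, at 60 mg/kg after a fast of 12 h, by intraperitoneal injection on 5 days in a row. Rats were counted as diabetic when fasting glucose exceeded 16.7 mmol/L 1 week after the last injection. The control group, labelled WT, comprised 3 male Sprague-Dawley rats that had received citrate buffer in the same way. Neither group carried an engineered allele in the labels, and the sources used here give neither the age of the rats nor the time at which the retinas were taken. Labelled body weights were 100.4, 102.5 and 104 g in diabetic rats 1, 2 and 3, against 103.4, 110.5 and 106 g in control rats 1, 2 and 3. Poly-A RNA of whole retina was sequenced as 6 libraries, with between 16277864 and 19115426 rebuilt fragments in diabetic libraries and between 12417686 and 16941864 in control libraries.

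The labelled tissue was checked with marker genes. All 8 rod markers and all 5 cone markers were present at a mean of at least 1 FPKM, with summed rod markers between 29416 and 33993 FPKM in diabetic retina and between 35442 and 39585 FPKM in control retina. The 5 cone markers summed to between 498 and 563 FPKM in diabetic retina and between 579 and 646 FPKM in control retina. In FPKM neither photoreceptor sum overlapped between the groups, while with each library rescaled to the same FPKM total both sums overlapped. Single markers differed in direction. The cone opsin gene Opn1sw was higher in every diabetic library (log2 difference 0.81). Opn1mw (0.26) and the rod marker Nr2e3 (0.03) were positive with overlap, and the other markers of both lists were negative. In a bulk sample, fewer cells of a type and less RNA per cell cannot be told apart, and the part of these marker differences in the values below was not tested. Lens markers summed to 341 FPKM in control 3, against 9.63 and 36.8 FPKM in control 1 and control 2 and between 7.77 and 42.3 FPKM in diabetic retina.

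The 3 most abundant carrier genes of the retina were the ADP/ATP carriers Slc25a4 and Slc25a5 and the phosphate carrier Slc25a3. In FPKM they had lower levels in every diabetic library than in any control library, as did Slc25a33, a pyrimidine nucleotide carrier. Slc25a23, a calcium-regulated carrier of ATP-magnesium, and Slc25a12, an aspartate-glutamate carrier, had higher levels in every diabetic library than in any control library. Their relatives Slc25a25 and Slc25a13 had negative log2 differences. Slc25a25 was apart in FPKM but overlapped with each library rescaled to the same FPKM total, and Slc25a13 overlapped. No carrier gene passed the test over all genes. In limma on log2(FPKM + 0.5) with Benjamini-Hochberg adjustment over 16363 genes, 0 of the 42 tested members and 0% of all genes tested had an adjusted p below 0.05. The smallest adjusted p among the members was 0.128, for Slc25a33. At an unadjusted p below 0.05, 10 of the 42 members were lower in diabetic retina, where 10.7% of all genes tested were lower. At the same threshold 4 of the 42 were higher, where 9.15% of all genes were. The count of 10 became 6 without diabetic 2 and 5 without control 2, and the count of 4 became 2 without diabetic 1, without diabetic 3 or without control 2 and 1 without control 1. The 10 were the 8 genes of the lower direction plotted by library further on, with Slc25a28 and Slc25a29. The values that follow are differences between 3 and 3 libraries that did not pass over all genes.

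Diabetic libraries all lay below control libraries in 13 of the 42 tested members, beside 13.6% of all genes tested. They all lay above control libraries in 4 of the 42, beside 12.7% of all genes tested. Of the 42 tested members, 26 had a log2 difference below 0, where 49.9% of all genes did. The median log2 difference of the members was -0.12, against 0.00 for all genes tested, and it was -0.06 without diabetic 2 and -0.07 without control 2 or without control 3. The whole distribution moved with the scaling: with each library rescaled to the same FPKM total (TPM), the median was 0.02 for the members, against 0.13 for all genes tested.

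**Figure D1:**
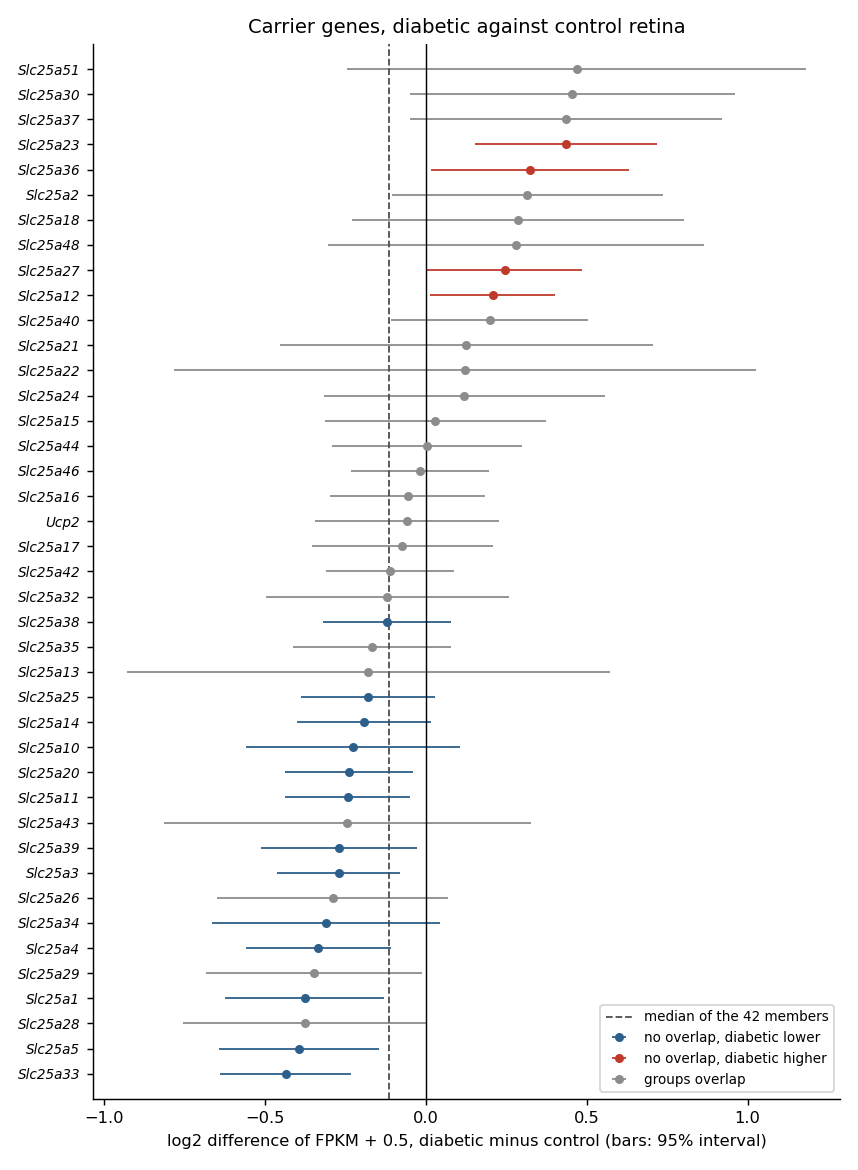
Log2 difference of the tested carrier genes described here, diabetic minus control retina, on the log2(FPKM + 0.5) scale, with 95% intervals from limma (3 libraries a group). Blue points mark the 13 genes whose diabetic libraries all lay below the control libraries, red points the 4 whose diabetic libraries all lay above them, and the dashed line is the median of the 42 tested members, -0.12.

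Of the 4 tested adenine nucleotide and phosphate carriers, 4 had a negative log2 difference, beside 49.9% of all genes tested, and 3 were lower at an unadjusted p below 0.05, beside 10.7%. Slc25a4 (ENSRNOG00000010830, chromosome 16, 49266903 to 49270698, in the table's coordinates of unstated genome build) encodes the ADP/ATP carrier of heart, muscle and neurons, and it measured 316, 299 and 293 FPKM in diabetic 1, 2 and 3, against 395, 413 and 342 FPKM in control 1, 2 and 3. Every diabetic library lay below every control library. The log2 difference was -0.33 with a standard error of 0.10 and a 95% confidence range from -0.56 to -0.11 (adjusted p = 0.156, limma). Slc25a5, a widespread ADP/ATP carrier, measured 235, 211 and 230.1 FPKM in diabetic retina, against 289.9, 335 and 265 FPKM in control retina. Its groups were also apart, with control 2 the highest library, and reads shared with its processed pseudogenes cannot be separated here. Its log2 difference was -0.39 ± 0.11 (SE; adjusted p = 0.144, limma). Slc25a3, which brings the phosphate for ATP synthesis into the matrix, measured 188, 172 and 181 FPKM in diabetic retina, against 231, 220.5 and 202 FPKM in control retina. Again no diabetic library reached a control library, and the log2 difference was -0.27 ± 0.08 (SE; adjusted p = 0.163, limma). Under quantile normalization the log2 differences were -0.10 for Slc25a4, -0.17 for Slc25a5 and -0.03 for Slc25a3. In TPM the groups of Slc25a3 overlapped, with a log2 difference of -0.13.

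Together Slc25a4, Slc25a5 and Slc25a3 made up 49.4%, 47.8% and 47.3% of the summed FPKM of the family in diabetic 1, 2 and 3, against 53.7%, 54.1% and 49.7% in control 1, 2 and 3. The family summed to 1471 ± 36.2 FPKM in diabetic retina and 1708 ± 80.5 FPKM in control retina (SD, n = 3 each). Without these 3 genes the sums were 762 ± 19.3 and 810 ± 18.0 FPKM in diabetic and control retina. As a share of all FPKM in the library the family held between 0.298% and 0.314% in diabetic retina, against between 0.317% and 0.327% in control retina, so this share did not overlap between the groups either. The remaining members of this role overlapped between the groups. The peroxisomal carrier gene Slc25a17 measured 40.0 ± 2.35 FPKM in diabetic retina and 42.4 ± 6.46 FPKM in control retina (SD, n = 3 each), and Slc25a31, the ADP/ATP carrier of the germ line, had 0, 0 and 2 fragments in diabetic retina and 0, 5 and 0 in control retina.

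The 250 bases before the start of transcription are shown for the 3 abundant carriers that were lower together in FPKM. They are also shown for Slc25a33 and Slc25a23, the members of smallest unadjusted p in each direction. They come from RefSeq in build GRCr8, on the strand of each gene, at chr16:52805271-52805520 (plus strand) for Slc25a4, chrX:120897366-120897615 (plus strand) for Slc25a5, chr7:27506628-27506877 (minus strand) for Slc25a3, chr5:165502974-165503223 (minus strand) for Slc25a33 and chr9:1985366-1985615 (minus strand) for Slc25a23. Windows of 250 bases before to 50 bases after the start were found for 42 of the 49 members. Each was searched on both strands for 4 motifs of factors known to act on nuclear genes of mitochondrial proteins: the ERR receptors (AAGGTCA), GABP and other ETS factors (CCGGAAG), and NRF1 and YY1, whose longer consensus motifs are given by name alone. Capitals mark a match, and no motif overlapped another in the sequences shown.
Slc25a4: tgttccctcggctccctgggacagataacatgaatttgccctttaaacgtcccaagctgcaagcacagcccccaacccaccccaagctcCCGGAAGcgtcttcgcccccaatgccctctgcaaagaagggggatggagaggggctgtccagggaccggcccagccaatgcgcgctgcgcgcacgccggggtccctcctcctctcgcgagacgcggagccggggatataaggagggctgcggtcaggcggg
Slc25a5: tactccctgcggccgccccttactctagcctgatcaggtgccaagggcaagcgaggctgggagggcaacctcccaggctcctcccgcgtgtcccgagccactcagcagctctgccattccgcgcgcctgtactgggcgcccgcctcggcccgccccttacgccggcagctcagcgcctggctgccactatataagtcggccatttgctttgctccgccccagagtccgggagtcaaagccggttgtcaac
Slc25a3: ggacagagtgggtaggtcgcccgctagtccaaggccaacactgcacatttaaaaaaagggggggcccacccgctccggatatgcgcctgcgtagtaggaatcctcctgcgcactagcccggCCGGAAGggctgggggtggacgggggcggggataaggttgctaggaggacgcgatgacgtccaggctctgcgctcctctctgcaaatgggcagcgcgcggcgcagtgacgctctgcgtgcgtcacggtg
Slc25a33: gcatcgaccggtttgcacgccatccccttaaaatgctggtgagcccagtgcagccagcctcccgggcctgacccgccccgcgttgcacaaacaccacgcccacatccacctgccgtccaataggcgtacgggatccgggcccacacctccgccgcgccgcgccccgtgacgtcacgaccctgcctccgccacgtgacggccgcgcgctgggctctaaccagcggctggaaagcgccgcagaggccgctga
Slc25a23: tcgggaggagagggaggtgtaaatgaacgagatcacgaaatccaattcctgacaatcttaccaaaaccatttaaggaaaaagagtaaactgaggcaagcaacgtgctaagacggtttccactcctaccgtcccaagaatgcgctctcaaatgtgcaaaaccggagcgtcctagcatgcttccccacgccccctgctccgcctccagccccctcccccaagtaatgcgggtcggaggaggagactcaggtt

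The ETS letters were found in the windows of 7 of 42 members, or 16.7%, among them Slc25a4 and Slc25a3, where they start 161 and 129 bases before the start of transcription. Of all 33365 promoter windows, 8.77% hold them. The NRF1 motif was found in 2 members (Slc25a31 and Slc25a51, 4.76%, against 4.26% of all windows) and the ERR letters in 1 member (Slc25a34, 2.38%, against 4.61%), while the YY1 motif was in 0 members, against 1.06% of all windows. Slc25a5, Slc25a33 and Slc25a23 held none of the 4 motifs in this window. The members' windows were rich in G and C, with a median of 60.3%, against 51.7% over all windows, and held a median of 17 CpG dinucleotides, against 7.

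Among the carriers of nucleotides and cofactors, the pair of pyrimidine nucleotide carriers had opposite signs. Slc25a33 (ENSRNOG00000016949, chromosome 5, 166701465 to 166726794), which carries pyrimidine nucleotides for mitochondrial DNA and RNA synthesis, measured 85.5, 74.8 and 81.6 FPKM in diabetic retina, against 114, 113 and 101 FPKM in control retina. The groups were well apart, with diabetic 2 the lowest library, and the log2 difference was -0.44 ± 0.09 (SE), with a 95% interval from -0.64 to -0.23. Its relative Slc25a36 measured 48.7, 42.8 and 42.2 FPKM in diabetic retina, against 29.5, 36.8 and 40.9 FPKM in control retina. Here every diabetic library was above every control library, though control 3 came close, and the log2 difference was 0.32 ± 0.13 (SE; adjusted p = 0.234, limma). It was 0.19 without control 1, the lowest library. Slc25a33 stayed the more abundant of the 2 in all libraries. Among the remaining members of this role, Slc25a26 (S-adenosylmethionine, -0.29), Slc25a32 (folate and flavin, -0.12), Slc25a42 (coenzyme A, -0.11) and Slc25a16 (-0.06) had negative log2 differences with overlapping groups. Slc25a51, the NAD carrier, had the largest positive log2 difference of the tested members, 0.47. Diabetic 1 was at 2.10 FPKM and diabetic 3 at 1.33 FPKM, while diabetic 2 at 0.687 FPKM lay below the control libraries, which were between 0.762 and 0.808 FPKM.

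**Figure D2:**
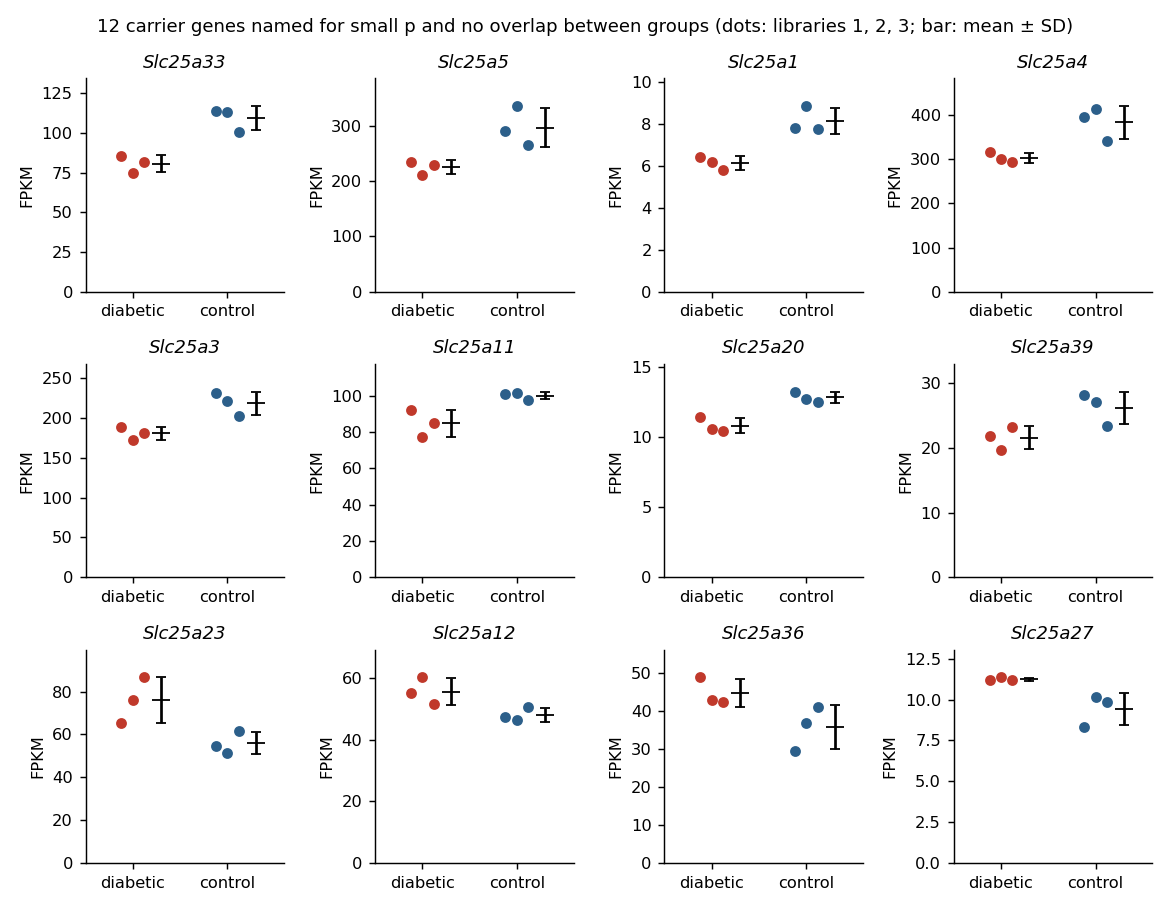
FPKM of the 12 carrier genes named for the smallest unadjusted p among those whose groups did not overlap, with 3 diabetic and 3 control libraries as dots and the mean ± SD beside them, on axes that start at 0. The first 8 panels are lower in diabetic retina, led by Slc25a33 with 80.6 against 109 FPKM, and the last 4 are higher, led by Slc25a23 with 76.1 against 55.9 FPKM.

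The carriers of ATP-magnesium exchange it for phosphate and set the adenine nucleotide content of the matrix. Slc25a23 (ENSRNOG00000047781, chromosome 9, 9988055 to 10001962, on the plus strand of the table's build) measured 65.4, 76.2 and 86.6 FPKM in diabetic 1, 2 and 3, against 54.6, 51.5 and 61.5 FPKM in control 1, 2 and 3. The groups were apart, and the log2 difference was 0.44 ± 0.12 (SE), with a 95% interval from 0.15 to 0.72 (adjusted p = 0.148, limma). Its relative Slc25a25 measured 31.8, 31.8 and 33.7 FPKM in diabetic retina, against 33.8, 36.0 and 40.7 FPKM in control retina. The log2 difference was -0.18, in the other direction and without overlap, though diabetic 3 was just under control 1. In TPM the groups of Slc25a25 overlapped, with a log2 difference of -0.04. Slc25a24 was a minor form at 1.27 ± 0.16 and 1.12 ± 0.13 FPKM in diabetic and control retina (SD, n = 3 each), and Slc25a41 had at most 5 fragments in any library.

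Carriers of the malate-aspartate shuttle, which moves reducing equivalents from cytosolic NADH into the matrix, had opposite signs. Slc25a12, the calcium-activated aspartate-glutamate carrier of neurons and muscle, measured 55.1, 60.2 and 51.6 FPKM in diabetic retina, against 47.3, 46.4 and 50.5 FPKM in control retina. The groups were separated by a narrow gap between diabetic 3 and control 3, and the log2 difference was 0.21 ± 0.08 (SE; adjusted p = 0.230, limma). Slc25a11, which exchanges malate for 2-oxoglutarate, measured 92.0, 77.1 and 84.8 FPKM in diabetic retina, against 101, 102 and 97.7 FPKM in control retina. It was lower in every diabetic library, with a log2 difference of -0.24 ± 0.08 (SE; adjusted p = 0.188, limma). In TPM the groups of Slc25a11 overlapped, with a log2 difference of -0.11, and under quantile normalization it was -0.09. The second aspartate-glutamate carrier, Slc25a13, known from the liver, was at 2.86, 1.71 and 2.04 FPKM in diabetic retina and 1.37, 3.42 and 3.22 FPKM in control retina, and the groups overlapped. Its log2 difference of -0.18 was 0.01 without control 2. The enzymes of the same shuttle, of which Got1 and Got2 were added after their values were seen, were lower in every diabetic library in FPKM. Of all genes tested, 13.6% were lower without overlap. The log2 differences were -0.41 for Mdh1, -0.25 for Mdh2, -0.18 for Got1 and -0.17 for Got2, with adjusted p from 0.152 to 0.314 (limma). With each library rescaled to the same FPKM total, Mdh2 stayed apart, while the groups overlapped for Mdh1, Got1 and Got2.

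The glutamate carriers were minor in these libraries. Slc25a22, whose loss in humans causes an early epileptic encephalopathy, measured 2.75, 8.47 and 3.58 FPKM in diabetic retina, against 3.17, 3.68 and 5.50 FPKM in control retina. The single high library, diabetic 2, set the sign: the log2 difference was 0.12 with all libraries and -0.31 without diabetic 2, with a 95% interval from -0.78 to 1.03 over all 6. Its relative Slc25a18 measured 0.878 ± 0.127 FPKM in diabetic retina and 0.632 ± 0.148 FPKM in control retina (SD, n = 3 each), from 12 to 34 fragments a library.

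Of the di- and tricarboxylate carriers, 3 of 4 were lower without overlap in FPKM, beside 13.6% of all genes tested, and in TPM Slc25a1 was the 1 that did not overlap, beside 5.60%. Slc25a1, which exports citrate for lipid synthesis, measured 6.43, 6.20 and 5.77 FPKM in diabetic retina, against 7.80, 8.82 and 7.73 FPKM in control retina. All diabetic libraries were below all control libraries, with a log2 difference of -0.38 ± 0.10 (SE; adjusted p = 0.150, limma). Slc25a10, the malate and phosphate exchanger, measured 22.0, 31.7 and 31.0 FPKM in diabetic retina and 33.3, 31.7 and 32.9 FPKM in control retina, so that its groups were separated by a hair, with diabetic 2 just under control 2 and diabetic 1 the lowest library. Slc25a21, the oxoadipate carrier, had a mean below 1 FPKM in both groups and overlapped.

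The carnitine-acylcarnitine carrier gene Slc25a20, which takes fatty acyl groups to beta-oxidation, measured 11.4, 10.6 and 10.4 FPKM in diabetic retina, against 13.2, 12.7 and 12.5 FPKM in control retina. Its spread was small in both groups and they did not overlap, with a log2 difference of -0.24 ± 0.08 (SE; adjusted p = 0.195, limma). Cpt1a, the outer membrane enzyme that forms the acylcarnitines, had a log2 difference of 0.32 (adjusted p = 0.138, limma) and was higher in every diabetic library. Among the amino acid carriers, Slc25a29 (basic amino acids) had a log2 difference of -0.35 with overlapping groups, Slc25a38 (glycine, for heme synthesis) had -0.12 and was separated by a hair, with diabetic 1 and control 1 both at 20.8 FPKM, and Slc25a44 (branched-chain amino acids) had 0.00. The ornithine carrier genes Slc25a2 and Slc25a15 had 0.31 and 0.03, and both overlapped.

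Metal and glutathione carriers occur as pairs of relatives, and both pairs had members of opposite sign. The mitoferrin gene Slc25a28, which supplies iron to mitochondria in most tissues, measured 45.8, 45.3 and 62.4 FPKM in diabetic retina, against 55.1, 73.8 and 70.0 FPKM in control retina. Diabetic 3 lay among the control libraries, and the log2 difference was -0.38 ± 0.16 (SE; adjusted p = 0.251, limma). The erythroid mitoferrin gene Slc25a37 measured 2.70, 4.05 and 3.49 FPKM in diabetic retina, against 1.79, 2.78 and 2.63 FPKM in control retina, a log2 difference of 0.44 ± 0.21 (SE; adjusted p = 0.290, limma) with diabetic 1 just under control 2. It was 0.27 without control 1. Red cell markers were present in all libraries and overlapped, with sums from 65.1 to 84.7 FPKM in diabetic retina and from 58.4 to 78.6 FPKM in control retina. Slc25a39, a glutathione carrier, measured 21.9, 19.7 and 23.1 FPKM in diabetic retina, against 28.1, 27.0 and 23.3 FPKM in control retina. Its groups did not overlap, although diabetic 3 nearly reached control 3, and its processed pseudogenes may share reads with it. The log2 difference was -0.27 ± 0.10 (SE; adjusted p = 0.215, limma). Its relative Slc25a40 had 0.20 with overlapping groups, and 10114 bases of it overlap Rundc3b on the opposite strand, so reads of the 2 genes may not be separable without strand.

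Of the 6 uncoupling proteins and near relatives, 4 were tested, 2 of them with a negative and 2 with a positive log2 difference. Slc25a27, a brain uncoupling protein relative, measured 11.4 FPKM in diabetic 2 and 11.2 FPKM in diabetic 1 and diabetic 3, against 8.34, 10.1 and 9.89 FPKM in control retina. The diabetic libraries were close to each other and above all controls, with a log2 difference of 0.24 ± 0.10 (SE; adjusted p = 0.245, limma), which was 0.16 without control 1. Slc25a14, another brain form, measured 13.3, 15.3 and 14.9 FPKM in diabetic retina and 16.7, 17.2 and 16.0 FPKM in control retina, a log2 difference of -0.19 without overlap. Ucp2 measured 17.6, 14.9 and 14.0 FPKM in diabetic retina, against 15.2, 15.0 and 18.3 FPKM in control retina, and the groups overlapped, with a log2 difference of -0.06, between -0.35 and 0.23 at 95% confidence, that was 0.03 without control 3 and 0.01 without diabetic 3. Slc25a30 was at 15.7 FPKM in diabetic 3, while diabetic 1 and 2 had 11.0 and 8.82 FPKM and the controls between 6.86 and 9.22 FPKM, a log2 difference of 0.45 with overlapping groups. The muscle form Ucp3 had 11, 6 and 5 fragments in diabetic retina, against 0, 0 and 3 in control retina. Ucp3 reached at most 0.168 FPKM and was too low for the test. The 5 muscle markers in the table summed to between 6.98 and 8.35 FPKM in diabetic retina, against between 5.24 and 6.31 FPKM in control retina, without overlap, 2 of 5 had a mean of at least 1 FPKM and the myosin gene Myh1 was at most 0.093 FPKM. Their part in the Ucp3 fragments was not tested. Ucp1, the heat-producing protein of brown fat, was listed at 0 in all libraries, which allows up to between 0.132 and 0.148 FPKM in diabetic retina and up to between 0.147 and 0.207 FPKM in control retina (3 fragments per library, counting error only). Of the fat markers, Adipoq was at most 0.052 FPKM and Plin1 at most 0.028 FPKM, and 1 of 4 had a mean of at least 1 FPKM.

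The outer membrane member Slc25a46, which acts in mitochondrial shape and whose loss in humans causes optic atrophy, measured 15.9, 16.1 and 14.1 FPKM in diabetic retina, against 16.6, 15.3 and 14.9 FPKM in control retina. The groups overlapped, and the log2 difference lay between -0.23 and 0.19 at 95% confidence. Of the less studied members, Slc25a34 was lower without overlap (log2 difference -0.31, at 2.70 ± 0.32 and 3.47 ± 0.45 FPKM in diabetic and control retina, SD, n = 3 each). Slc25a35 (-0.17), Slc25a43 (-0.24) and Slc25a48 (0.28) overlapped. Slc25a45, Slc25a47 and Slc25a54 were below the level tested, with at most 24, 5 and 3 fragments in any library.

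**Figure D3:**
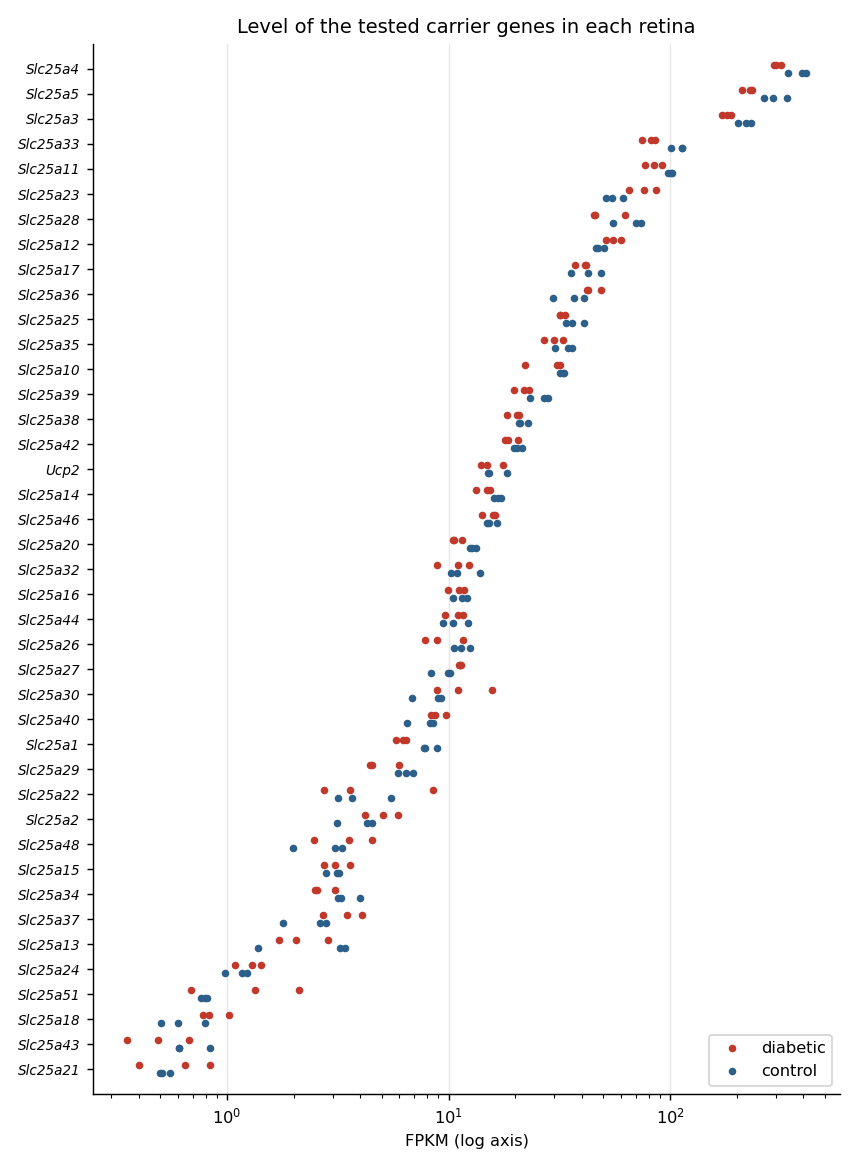
FPKM of the tested carrier genes described here in every library on a log axis, ordered by the mean of the 6 libraries, with diabetic libraries as red and control libraries as blue dots. The order runs from Slc25a4 with means of 303 and 383 FPKM in diabetic and control retina down to Slc25a21 with 0.627 and 0.519 FPKM, and the dots of a gene spread more at the low end.

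The within-library ratio of related carriers does not change when a library is rescaled by a common factor, as with TPM, apart from the pseudocount. Quantile normalization and removal of the length trend can change it. In FPKM, 8 pairs were compared. Slc25a5 over Slc25a4 had log2 ratios of -0.43 ± 0.08 in diabetic retina and -0.37 ± 0.07 in control retina (SD, n = 3 each), a difference of -0.06 with overlapping groups (p = 0.5, exact permutation test, two-sided). Slc25a36 over Slc25a33 had log2 ratios of -0.81, -0.80 and -0.94 in diabetic 1, 2 and 3, against -1.93, -1.61 and -1.29 in control 1, 2 and 3. These did not overlap, with a difference of 0.76 (p = 0.1, exact permutation test, two-sided). The mitoferrin pair Slc25a28 over Slc25a37 had log2 ratios of 3.85, 3.33 and 3.98 in diabetic retina, against 4.60, 4.50 and 4.50 in control retina, a difference of -0.81 (p = 0.1, exact permutation test, two-sided). Slc25a25 over Slc25a23 had log2 ratios of -1.03, -1.25 and -1.35 in diabetic retina, against -0.68, -0.51 and -0.59 in control retina, a difference of -0.62 (p = 0.1, exact permutation test, two-sided). In these 3 pairs no diabetic library overlapped a control library, and in the other 5 pairs the groups overlapped. For Slc25a36 over Slc25a33 and Slc25a25 over Slc25a23 the separation and its p were fixed beforehand. In FPKM both genes of each of these pairs were already apart between the groups, in opposite directions. With 3 libraries a group the exact test cannot go below 0.1, and the adjusted p of the 3 pairs over the 8 was 0.267.

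**Figure D4:**
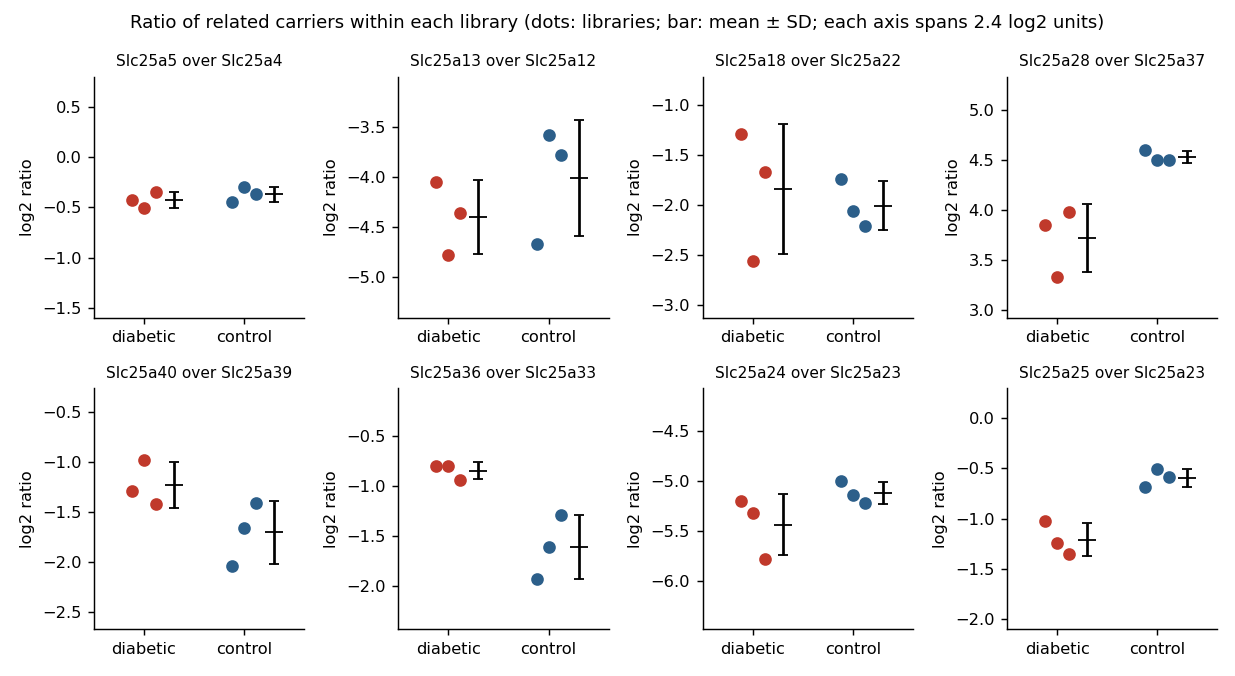
Log2 ratio of FPKM + 0.5 between related carriers within each library for 8 pairs, diabetic left and control right, with libraries as dots and the mean ± SD beside them. The groups are apart for Slc25a28 over Slc25a37, Slc25a36 over Slc25a33 and Slc25a25 over Slc25a23, and overlap in the others.

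Because the median of all genes moved with the scaling, each member was also read under other scalings. With TPM, 19 of the 42 members had a negative log2 difference, beside 31.4% of all genes, and 2 members were lower at an unadjusted p below 0.05, beside 4.23%, while 7 were higher, beside 18.4%. Under quantile normalization 27 members were negative, beside 50.5%, and with the length trend removed 26, beside 52.7%. In the same TPM values, 4 of the 42 members did not overlap in the lower direction, beside 5.60% of all genes tested. In the higher direction 8 of the 42 did not overlap, beside 23.5% of all genes tested. The 4 lower members were Slc25a33, Slc25a5, Slc25a4 and Slc25a1, and all 4 were also apart in FPKM. Slc25a4 was only just so, with 663.6 TPM in diabetic 1 against 664.4 TPM in control 3. The 4 members that were higher without overlap in FPKM, which were Slc25a23, Slc25a12, Slc25a36 and Slc25a27, were higher without overlap in TPM too. Slc25a23 measured 137, 163 and 173 TPM in diabetic retina, against 105, 93.3 and 119 TPM in control retina. These 8 members had the same sign under all 5 treatments of the values, which were FPKM, TPM, quantile normalization, removal of the length trend and voom on rebuilt fragments. For FPKM and TPM this follows from the absence of overlap by which the 8 were chosen. In all, 19 tested members were negative and 14 positive under all 5. The other 9, which were Slc25a15, Slc25a16, Slc25a17, Slc25a32, Slc25a38, Slc25a42, Slc25a44, Slc25a46 and Ucp2, changed sign between them.

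**Figure D5:**
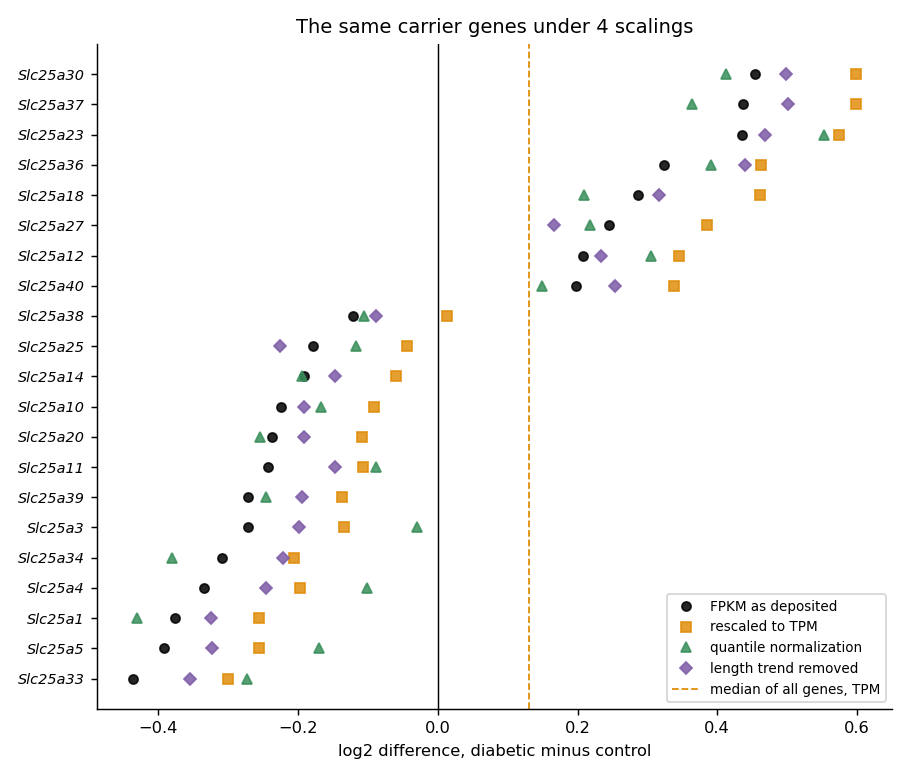
Log2 difference, diabetic minus control, of the carrier genes whose groups did not overlap in FPKM or in TPM, under 4 scalings of the same libraries. TPM values lie to the right of the FPKM values of the same gene, with the median of all genes at 0.13 (dashed line), and Slc25a33, Slc25a5, Slc25a4 and Slc25a1 stay below 0 and Slc25a23, Slc25a12, Slc25a36 and Slc25a27 above it.

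The log2 difference was also read by gene length and level. Over the tested members its Spearman correlation with length was 0.26, against 0.25 over all genes tested. The Pearson correlation with log2 length was 0.09 for the members. The tested members were between 918 and 6478 nt long, and the 21 members shorter than their median of 1761 nt had a median log2 difference of -0.18, against -0.02 for the 21 others. Over all genes tested in the same length ranges the medians were -0.11 and 0.03. The 15 members with a mean of at least 20 FPKM had a median log2 difference of -0.23 with 12 of them below 0, and the 27 others a median of -0.02 with 14 below 0. All genes were not split at this level, so the level split has no background beside it. Of the 12, Slc25a17 and Slc25a38 were positive with TPM (0.06 and 0.01). With the length trend of each library removed, the median of the members was -0.10, against -0.02 for all genes tested.

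Other genes of mitochondrial transport were read from lists chosen with earlier results of these data known. Of 26 tested transporters outside the Slc25a symbols, 5 were lower at an unadjusted p below 0.05, beside 10.7% of all genes tested, and 3 were higher, beside 9.15%. Their median log2 difference was 0.01, and 0.14 with TPM. The mitochondrial pyruvate carrier genes Mpc1 and Mpc2 had log2 differences of -0.40 and -0.41 without overlap, Smdt1, a subunit of the calcium uniporter, had -0.34, and the sideroflexin gene Sfxn4 had 0.31. Mcu, another gene of the uniporter, had 0.22 and was higher in every diabetic library. Of 21 tested enzymes that work with the carriers, 5 were lower at that threshold, beside 10.7%, and 2 were higher, beside 9.15%. Their median log2 difference was -0.12, against 0.02 with TPM and -0.02 with quantile normalization. Ckmt1, the mitochondrial creatine kinase that takes ATP from the ADP/ATP carriers, measured 79.4, 72.6 and 84.0 FPKM in diabetic retina, against 104, 118 and 114 FPKM in control retina, a log2 difference of -0.51 (adjusted p = 0.127, limma).

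Of 17 tested regulators of mitochondrial genes, 2 were lower at an unadjusted p below 0.05, beside 10.7% of all genes tested, and 4 were higher, beside 9.15%. Their median log2 difference was -0.05, and 0.09 with TPM. Ppargc1a, the coactivator PGC-1alpha that drives mitochondrial biogenesis, measured 14.8, 15.6 and 15.2 FPKM in diabetic retina, against 7.48, 9.49 and 12.1 FPKM in control retina. The diabetic libraries were close together and above all controls, with a log2 difference of 0.65 (adjusted p = 0.139, limma). Its relative Ppargc1b had 0.41 and its partner receptor gene Esrrg 0.23, while Tfb2m, a factor of mitochondrial transcription, had -0.37. Their relatives had the other sign, also without overlap: Esrra, another ERR receptor gene, had -0.19, and Tfb1m had 0.24. None of these passed over all genes.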

How the data were processed

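RNA of the retina of 3 diabetic and 3 control rats was measured as 150-base read pairs from poly-A libraries, per the labels' protocols. The deposited values are FPKM, made by the authors. HISAT2 2.0.5 is named in the submitters' processing notes, and the sources used here do not name the counting tool, genome build or annotation. FPKM multiplied by gene length gave whole fragments within 0.05 for 100% of values, so fragments could be rebuilt, with 12417686 to 19115426 fragments per library. A count of 3 fragments was worth 0.158 to 0.248 FPKM for a gene of 1 kb.

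Differences on the log2(FPKM + 0.5) scale were fitted by limma 3.58.1 (R 4.3.3, intensity trend, no covariate) for genes averaging 0.5 FPKM or more, and Benjamini-Hochberg adjustment over 16363 genes at 0.05, after tests on simulated data. A fold on this scale understates the change of low genes. Figures used matplotlib 3.10.9. Ratios of related carriers used an exact permutation test. The labels give each sample its own body weight, and p-values measure the spread between these samples.

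The members and gene lists were chosen with earlier results of these data known. Named were, per direction, up to 8 members without overlap and of smallest unadjusted p, 14 members of known role, all others in short, and up to 4 genes per list of smallest unadjusted p. Esrra, Tfb1m and Mcu were named in addition, after their values were seen. Values of 1 member are not reported here, though it is in the counts and sums. The pseudogene entries Slc25a6 and Slc25a52 fall outside the membership, as does a separate entry under Mcart1, an older symbol of Slc25a51. Alternatives were other pseudocounts, filters, scalings, voom on rebuilt fragments, a replicate block and leaving out each library.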

Additional observations from a re-analysis of the deposited data

How the results depend on the processing

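In every setting run, 0 members passed over all genes, and the smallest adjusted p of a member in any setting was 0.0566 (limma, Slc25a33 without control 3). The count of all genes that passed, 0 in the reported fit with 1757 lower and 1498 higher at an unadjusted p below 0.05, was 2 with voom on rebuilt fragments and 0 to 4 when a library was left out. The members at an unadjusted p below 0.05 were 2 lower and 7 higher with TPM, and 6 lower with voom, and 1 was higher with no intensity trend, while leaving out a library gave 5 to 8 lower and 1 to 3 higher. For all genes TPM gave 692 lower and 3009 higher, and leaving out a library 1145 to 2124 lower and 928 to 1886 higher, both highest without control 3. The members' median was 0.019 with TPM (0.13 for all genes), -0.066 with no filter on low values, -0.061 with voom, and -0.14 to -0.060 when a library was left out. In TPM, an alternative for the overlap counts that was added after seeing the data, 4 members were lower and 8 higher without overlap. Members with a negative log2 difference numbered 19 to 28 over all settings.

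Among the members followed under every setting, some changed sign. Slc25a46 had 0.12 with TPM and 0.024 with voom, and -0.052 to 0.040 when a library was left out. Ucp2 had 0.076 with TPM and 0.0021 with the length trend removed, with or without the replicate block, and -0.15 to 0.030 when a library was left out. Leaving out a library gave -0.52 to 0.010 for Slc25a13, -0.31 to 0.42 for Slc25a22 and -0.11 to 0.52 for the ratio of Slc25a18 to Slc25a22. The cause was not tested. The 12 members named for smallest unadjusted p and Slc25a37 kept their sign in every setting run. The other 7 pairs kept theirs in the fewer settings run for pairs. Those were another pseudocount, no pseudocount and leaving out each library. The 12 were chosen for groups that did not overlap, so leaving out a library could not change their sign. The same holds for the pairs without overlap.

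The deviations of same-numbered diabetic and control libraries had correlations of -0.05, -0.08 and 0.00, and those of different-numbered libraries -0.04 to 0.09. These values show no pairing by number, but with 3 libraries a group they cannot settle whether samples were handled in pairs. The replicate block gave 0 genes called, 8 members lower and 3 higher at an unadjusted p below 0.05 (1497 and 1293 of all genes), and with the length trend removed 8 lower and 4 higher (1341 and 1109 of all genes). Depth limits the members below 1 FPKM, such as Slc25a18 with 12 to 34 fragments.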
